A study of Mus musculus with 7 samples.

Results

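Open chromatin was examined at Grhl1, Grhl2, Grhl3, Ovol1, Ovol2, Esrp1, Esrp2, Elf3 and Ehf, 9 of the 21887 protein-coding genes in the RefSeq gene table used here. They were taken by name as regulators of epithelial identity, and the value read for each was the set of ATAC-seq peaks that lay in its gene body or within 50 kb of it. ATAC-seq marks DNA that a transposase can reach, so a peak is a stretch of open chromatin. The 7 mouse libraries, all made with the Omni-ATAC protocol, held 130788 regions once their peaks were merged, and 130 of these lay at the 9 genes. Ectoderm peeled with Dispase II from the first pharyngeal arch at embryonic day 11.5 gave 2 libraries. Sox2-positive cells, sorted by flow cytometry from the dissociated labial cervical loop of the lower incisor at postnatal day 2 (P2), gave another 2. The reporter in these mice is GFP under the endogenous Sox2 promoter (the Sox2-GFP line), so the sort keeps any cell of the dissected piece in which that promoter is on. Whole lower incisor, whole lower first molar and whole upper first molar at P2 gave 1 library each, with no replicate, and hold the tooth's epithelium and mesenchyme together. The labels name no strain, no allele or agent for the other samples, and do not say whether replicates came from separate animals or pools.

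Epithelial cells are held in their state by a small set of regulators. The grainyhead-like factors (Grhl1 to Grhl3) bind and activate genes of cell junctions and of the skin barrier, and are known for closing the neural tube and the epidermis. Ovol1 and Ovol2 are zinc-finger repressors that keep mesenchymal regulators such as Zeb1 silent, Esrp1 and Esrp2 are RNA-binding proteins that set the epithelial splice forms of genes such as Fgfr2, and Elf3 and Ehf are ETS-family factors of differentiating epithelia. Tooth epithelium arises from the oral ectoderm of the first arch, and the cervical loop of the mouse incisor keeps a pool of epithelial stem cells through life.

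RefSeq promoter windows on GRCm38.p6, 250 bases before to 50 after a start site, were at hand for 4 of the 9 genes. They are shown because they span the range met below: the windows of Grhl1 and Elf3 lay wholly under a peak in all 7 libraries, while those of Grhl3 and Ovol2 were covered in some libraries and not in others. Capitals mark motif matches found on either strand.
Grhl1, chr12:24572037-24572336, plus strand: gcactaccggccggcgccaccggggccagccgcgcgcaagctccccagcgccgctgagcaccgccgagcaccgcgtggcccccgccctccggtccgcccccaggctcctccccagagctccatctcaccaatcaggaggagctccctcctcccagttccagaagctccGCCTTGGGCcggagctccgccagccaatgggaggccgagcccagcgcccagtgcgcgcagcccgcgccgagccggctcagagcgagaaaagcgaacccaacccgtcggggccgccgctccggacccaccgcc
Elf3, chr1:135258423-135258722, minus strand: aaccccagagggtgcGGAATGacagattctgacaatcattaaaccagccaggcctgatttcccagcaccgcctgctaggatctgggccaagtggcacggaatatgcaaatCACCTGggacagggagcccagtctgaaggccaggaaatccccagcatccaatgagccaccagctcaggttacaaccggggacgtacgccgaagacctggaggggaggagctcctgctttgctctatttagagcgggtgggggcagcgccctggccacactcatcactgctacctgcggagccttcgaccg
Grhl3, chr4:135573583-135573882, minus strand: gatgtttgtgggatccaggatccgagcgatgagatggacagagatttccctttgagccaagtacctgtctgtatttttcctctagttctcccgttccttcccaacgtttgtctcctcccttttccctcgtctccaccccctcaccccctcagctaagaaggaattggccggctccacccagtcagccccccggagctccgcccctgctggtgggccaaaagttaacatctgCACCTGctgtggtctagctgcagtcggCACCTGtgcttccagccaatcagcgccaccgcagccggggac
Ovol2, chr2:144331313-144331612, minus strand: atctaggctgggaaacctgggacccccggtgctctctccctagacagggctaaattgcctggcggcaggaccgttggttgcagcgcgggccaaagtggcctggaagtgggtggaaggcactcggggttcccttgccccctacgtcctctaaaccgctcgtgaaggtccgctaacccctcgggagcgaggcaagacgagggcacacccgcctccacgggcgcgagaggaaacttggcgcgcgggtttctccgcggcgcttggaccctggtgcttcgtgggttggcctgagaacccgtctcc

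The 6 motifs searched, as exact letters on both strands, were grainyhead (AACCGGTT), OVOL (CCGTTA), the E-box of ZEB and SNAI factors (CAGGTG), ETS (AGGAAG), AP-2 (GCCNNNGGC) and TEAD (GGAATG). No match overlapped another. The Grhl3 window held the E-box on the opposite strand, as CACCTG, 19 bases before the start site and again at base 9 after it. The Elf3 window held the same letters 140 bases before the start site and the TEAD letters 235 bases before it. The Grhl1 window held the AP-2 letters 82 bases before its start site, and the Ovol2 window held none of the 6. Over 21263 promoter windows of the same length, 19.7% held the E-box, 19.9% AP-2 and 13.6% TEAD. The grainyhead and OVOL letters, met in 0.179% and 2.96% of all windows, were in none of the 4. A second annotated start of Grhl1 (window chr12:24580469-24580768), which held the ETS letters that 34.4% of windows hold, had no base under a peak in any library. Base composition differed widely among the windows: Grhl1 had 75.3% G or C and 35 CpG sites, Ovol2 65.7% and 25, Elf3 59.0% and 12, and Grhl3 58.3% and 12, against medians of 56.3% and 13 over all windows.

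Cover of the last 2 windows differed between libraries. In ectoderm replicates 1 and 2, 300 and 300 bases of the Grhl3 window were covered, in Sox2-positive replicates 1 and 2, 156 and 0, in the incisor 0, in the lower molar 218 and in the upper molar 196. The Ovol2 window had 187 and 300 covered bases in the ectoderm, 0 and 0 in the Sox2-positive libraries, and 17, 0 and 178 in the incisor, lower molar and upper molar. The embryonic ectoderm therefore had the widest cover of the Grhl3 window, and of the Ovol2 window too, with the upper molar close behind ectoderm replicate 1 for Ovol2.

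The peak lists differed in length, which bears on every count. They ran from 39017 peaks (Sox2-positive replicate 2) to 82461 (ectoderm replicate 1), with Sox2-positive replicate 1 at 42606, ectoderm replicate 2 at 50792, and the teeth at 63040 to 70000. Read depth is not part of a peak list and is unknown here. The main counts are therefore given for the full lists and for lists of equal length, the 38000 autosomal peaks of each library with the largest −log10 p, which kept 47.0% to 99.1% of a library's autosomal peaks. No p-value is given: 2 libraries against 2 cannot bring a two-sided exact permutation test below 0.333, and genes and regions are not replicates. The spread between the 2 libraries of a group is given instead. Of all regions at the 9 genes, the one farthest inside the 50 kb limit lay 48.7 kb from Ovol1, in 7 libraries, and the nearest one outside lay 50.1 kb from Elf3, in 4 libraries. A bulk peak list cannot tell fewer cells with an open site from a site less open in each cell.

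Over the 9 loci the ectoderm had more peaks than the Sox2-positive cells. Full lists held 102 and 70 peaks at the loci in the ectoderm replicates, 43 and 47 in the Sox2-positive replicates, 54 in the incisor, 73 in the lower molar and 71 in the upper molar. The means were 86.0 ± 22.6 (SD, n = 2) in the ectoderm and 45.0 ± 2.83 (SD, n = 2) in the Sox2-positive cells. With lists of equal length the totals were 64 and 55 against 41 and 47, and 38, 48 and 47 in the teeth, so the difference of 41 peaks shrank to 15.5 but the groups still did not overlap. The loci took up 0.168% and 0.145% of the equal-length ectoderm lists and 0.108% and 0.124% of the Sox2-positive ones.

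Grhl3 and Grhl2 carried most of that difference, at 18 and 9.5 of the 41 peaks. Without Grhl3, equal-length lists held 49 and 41 peaks in the ectoderm against 37 and 43 in the Sox2-positive cells, and the groups overlapped. Without Grhl2, they held 52 and 50 against 35 and 40, with no overlap. The excess in lists of equal length thus depended on Grhl3. More peaks in both ectoderm libraries than in both Sox2-positive libraries were counted at 5 of the 9 genes (Grhl2, Grhl3, Ovol2, Esrp1 and Esrp2), where 40.4% of all genes showed the same. In lists of equal length it was 4 of 9 (the same genes without Grhl2) beside 20.1% of all autosomal genes. The opposite order was met at 0 of 9 genes in full lists, beside 2.93% of all genes, and at Ehf alone in equal-length lists, beside 17.6%. The median ectoderm minus Sox2-positive difference was 2.5 peaks over the 9 genes and 1.5 over all genes, or 1.5 and 0 in lists of equal length.

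**Figure D1:**
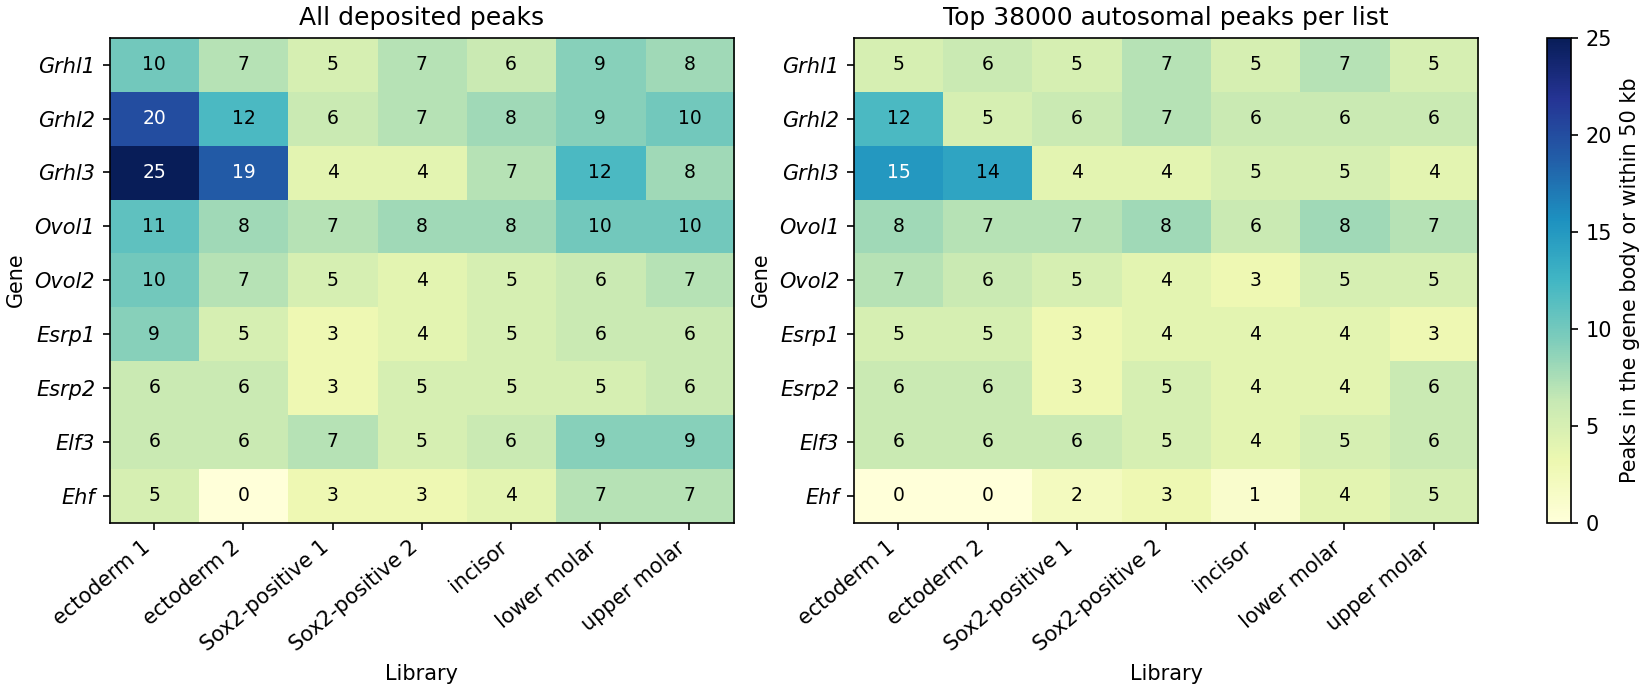
Number of peaks in the gene body or within 50 kb of it (colour and printed number) for each of the 9 genes (rows) in each of the 7 libraries (columns), in full lists at left and in the 38000 strongest autosomal peaks of each list at right. Grhl3 stands out in both ectoderm libraries in either panel, with 25 and 19 peaks at left and 15 and 14 at right, and Ehf has no peak in ectoderm replicate 2.

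Start sites gave a second reading of the same lists. A gene had a start-site peak if a peak lay within 1 kb of its start, or of either gene end for the 5 genes whose strand the promoter table does not give (Grhl2, Ovol1, Esrp1, Esrp2 and Ehf). Such a peak was present in all 7 libraries for 6 of the 9 genes, all but Grhl3, Ovol2 and Ehf, beside 54.1% of all genes. Both ectoderm libraries had it for 8 genes (64.1% of all genes), both Sox2-positive libraries for 6 (55.1%) and all 3 teeth for 7 (58.7%). In lists of equal length 4 genes (Grhl1, Esrp1, Esrp2 and Elf3) kept it in all 7 libraries, beside 51.4% of all genes. Grhl2, Grhl3, Ovol1 and Ovol2 had none in the equal-length incisor list.

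The strength of the start-site peak was then ranked within each library. Each gene was given the share of all genes in the same list whose strongest start-site peak had a lower −log10 p, called its start-site percentile, with genes that lack a peak at 0. Genes without a peak count as lower, so even the weakest start-site peak has a percentile far above 0. That floor differs by library, as 14575 of the 21887 genes had a start-site peak in ectoderm replicate 1 and 12427 in Sox2-positive replicate 2. This measure was added after the values had been seen. Of the 9 genes, 7 (Grhl2, Grhl3, Ovol1, Ovol2, Esrp1, Esrp2 and Elf3) had a higher percentile in both ectoderm libraries than in both Sox2-positive ones, beside 21.6% of all genes. The same 7 were higher in both ectoderm libraries than in all 5 P2 libraries, beside 15.2%. Equal-length lists gave the same 7 genes for both counts, beside 19.4% and 14.1% of autosomal genes. Among the 6 genes with a start-site peak in all 7 libraries, 5 were higher in the ectoderm than in the Sox2-positive cells, beside 25.9% of all genes with such a peak, and 3 of 4 in equal-length lists, beside 25.9%. Grhl1 went the other way, which 18.4% of all genes did (18.6% in equal-length lists), and Ehf had no order. Among genes with a start-site peak in all 7 libraries, 32.5% went that way (31.3% in equal-length lists).

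**Figure D2:**
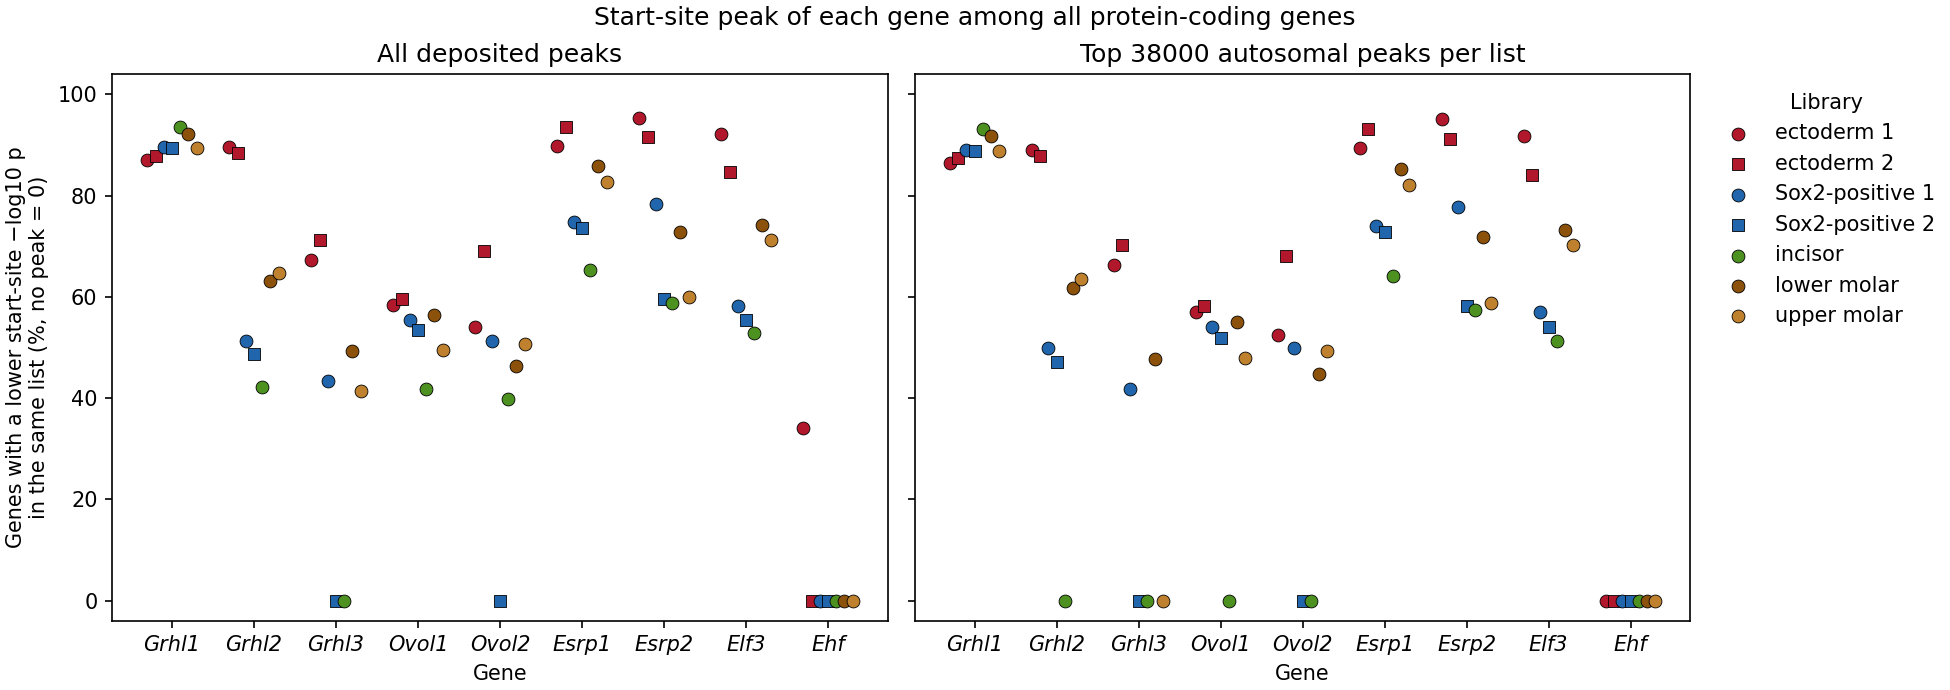
Start-site percentile (y axis, %, genes without a peak at 0) of the 9 genes (x axis) in each of the 7 libraries (1 point each), with full lists at left and equal-length lists at right. The red ectoderm points lie above all other points for 7 genes, and for Grhl1 they lie lowest, at 87.0 and 87.9 in the left panel.

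Among the grainyhead-like genes, Grhl1 (chr12:24572232-24617391), a factor of desmosome and skin genes, changed least. Its window held 10 and 7 peaks in the ectoderm, 5 and 7 in the Sox2-positive cells and 6, 9 and 8 in the incisor, lower molar and upper molar, so the groups touched at 7. In lists of equal length it held 5 and 6, then 5 and 7, then 5, 7 and 5. Its start-site percentile was 87.0 and 87.9 in the ectoderm, 89.6 and 89.4 in the Sox2-positive cells, and 93.6, 92.1 and 89.3 in the teeth. The start site of Grhl1 thus ranked high in every library, lowest by a small step in the ectoderm. Its start-site peak ranked above 94.4% to 97.9% of all peaks of its list by −log10 p.

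Grhl2 (chr15:37232821-37363569), which acts on Cdh1 and claudin genes, had 20 and 12 peaks in the ectoderm, 6 and 7 in the Sox2-positive cells and 8, 9 and 10 in the teeth. In full lists both ectoderm libraries exceeded every P2 library. Equal-length lists gave 12 and 5 in the ectoderm, 6 and 7 in the Sox2-positive cells and 6, 6 and 6 in the teeth, so there the excess was in ectoderm replicate 1 only. Its start-site percentile kept the groups apart, at 89.6 and 88.4 in the ectoderm, 51.3 and 48.6 in the Sox2-positive cells, and 42.2, 63.1 and 64.8 in the incisor, lower molar and upper molar. The means of the 2 groups differed by 39.0 percentage points, with SDs of 0.840 in the ectoderm and 1.88 in the Sox2-positive cells (n = 2 each). The start-site peak was 1396 and 2734 bases wide in the ectoderm and 727 and 583 in the Sox2-positive cells.

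Grhl3 (chr4:135541887-135573632), a driver of epidermal barrier genes such as Tgm1, showed the largest difference in peak number of the 9. It had 25 and 19 peaks in the ectoderm, 4 and 4 in the Sox2-positive cells and 7, 12 and 8 in the teeth. Equal-length lists gave 15 and 14, then 4 and 4, then 5, 5 and 4. Both ectoderm libraries exceeded every P2 library in either reading. The mean of 22.0 ± 4.24 was 5.5-fold that of 4 ± 0 (SD, n = 2 each), or 3.62-fold in equal-length lists. More peaks in both ectoderm libraries than in every P2 library were found at Grhl2 and Grhl3 in full lists, beside 13.8% of all genes, and at Grhl3, Ovol2 and Esrp1 in equal-length lists, beside 13.2%. At its start site Grhl3 reached percentiles of 67.4 and 71.2 in the ectoderm, 43.4 and 0 in the Sox2-positive cells, and 0, 49.4 and 41.4 in the teeth. The start-site peak was thus missing in Sox2-positive replicate 2 and in the incisor. In Sox2-positive replicate 1 it ranked above only 15.0% of that library's peaks, so its 43.4 lay near the floor of the percentile.

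The Ovol genes differed from each other. Ovol1 (chr19:5549137-5560575) had 11 and 8 peaks in the ectoderm, 7 and 8 in the Sox2-positive cells and 8, 10 and 10 in the teeth, and in equal-length lists 8 and 7, 7 and 8, then 6, 8 and 7. No group stood apart. Its start-site percentiles of 58.3 and 59.5 in the ectoderm, 55.4 and 53.4 in the Sox2-positive cells and 41.8, 56.5 and 49.5 in the teeth differed by only 4.51 points between the 2 replicated groups. Ovol1 shares that peak with the end of Ap5b1, so the peak cannot be given to Ovol1 alone.

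Ovol2 (chr2:144305175-144332080), needed for epithelial identity in the embryo, had 10 and 7 peaks in the ectoderm, 5 and 4 in the Sox2-positive cells and 5, 6 and 7 in the teeth. Equal-length lists gave 7 and 6, then 5 and 4, then 3, 5 and 5. Its start-site percentile was 54.0 and 69.1 in the ectoderm, 51.3 and 0 in the Sox2-positive cells, and 39.8, 46.3 and 50.8 in the teeth. The incisor's 39.8 lay near the floor of this measure, as that peak ranked above only 2.15% of the incisor's peaks. In full lists the upper molar equalled ectoderm replicate 2 in peak number, and in the other readings both ectoderm libraries were highest. At the start site ectoderm replicate 1 exceeded Sox2-positive replicate 1 by 2.69 points, and the mean difference of 35.9 points rested on the missing peak in Sox2-positive replicate 2. The summit of the peak lay 816 to 835 bases upstream of the annotated start in 5 of the 6 libraries that had one, near the end of the gene body in the gene table, and 295 bases downstream of that start in the incisor. The promoter window printed above is thus beside the centre of that peak in those 5 libraries.

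The splicing regulators kept a start-site peak everywhere. Esrp1 (chr4:11331933-11386783) had 9 and 5 peaks in the ectoderm, 3 and 4 in the Sox2-positive cells and 5, 6 and 6 in the teeth, and in equal-length lists 5 and 5, 3 and 4, then 4, 4 and 3. Its start-site percentile was 89.9 and 93.5 in the ectoderm, 74.9 and 73.7 in the Sox2-positive cells and 65.3, 85.9 and 82.7 in the teeth, a difference of 17.4 points between the replicated groups. The width of its start-site peak ran from 1245 bases in the incisor to 4139 in ectoderm replicate 2. Over all genes' start-site peaks, the 95th percentile of width was 2350 bases in the incisor and 2432 in ectoderm replicate 2. The peak was thus broad in ectoderm replicate 2 and near the median of 1092 bases in the incisor.

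Esrp2 (chr8:106130319-106137193) had 6 and 6 peaks in the ectoderm, 3 and 5 in the Sox2-positive cells and 5, 5 and 6 in the teeth, and in equal-length lists 6 and 6, 3 and 5, then 4, 4 and 6. Its start-site percentile was 95.3 and 91.6 in the ectoderm, 78.5 and 59.6 in the Sox2-positive cells and 58.8, 72.8 and 60.1 in the teeth. By start-site percentile, though not by peak number in full lists, both ectoderm libraries were highest for both Esrp genes. The Sox2-positive replicates of Esrp2 lay 18.9 points apart, against 1.21 for Esrp1. The Esrp2 percentiles rank different summits: both ectoderm libraries, Sox2-positive replicate 1 and the lower molar had 1 wide peak with its summit 2039 to 2056 bases from the gene end, and in the other 3 libraries the ranked peak had its summit 276 to 286 bases from it. Over the whole merged region the Sox2-positive replicates ranked above 88.7% and 79.5% of their lists' peaks.

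Of the ETS-family genes, Elf3 (chr1:135253574-135258472) did not differ in peak number, with 6 and 6 in the ectoderm, 7 and 5 in the Sox2-positive cells and 6, 9 and 9 in the teeth, the molars highest. Equal-length lists gave 6 and 6, 6 and 5, then 4, 5 and 6. Its start site did differ, at percentiles of 92.1 and 84.6 in the ectoderm, 58.3 and 55.5 in the Sox2-positive cells and 52.8, 74.3 and 71.2 in the teeth. The ectoderm was highest and the molars next, with the incisor close to Sox2-positive replicate 2 and 31.5 points between the means of 88.4 ± 5.30 and 56.9 ± 1.98 (SD, n = 2 each).

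Ehf (chr2:103263431-103303275) was the exception among the 9. It had 5 and 0 peaks in the ectoderm, 3 and 3 in the Sox2-positive cells and 4, 7 and 7 in the teeth, and in equal-length lists 0 and 0, 2 and 3, then 1, 4 and 5. The molars were highest in either reading, and the 5 peaks of ectoderm replicate 1 were all outside its 38000 strongest. Its only start-site peak, in ectoderm replicate 1, ranked above just 9.84% of that library's peaks. Of the 130 regions, 3 at Ehf were found in the 2 molars and nowhere else, among them the neighbours chr2:103217979-103218853 and chr2:103219102-103219549, 44.6 and 43.9 kb from the gene. More peaks in both molars than in the incisor were counted at 8 of the 9 genes in full lists, all but Esrp2, beside 31.8% of all genes, and at 4 in equal-length lists, beside 21.8%.

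**Figure D3:**
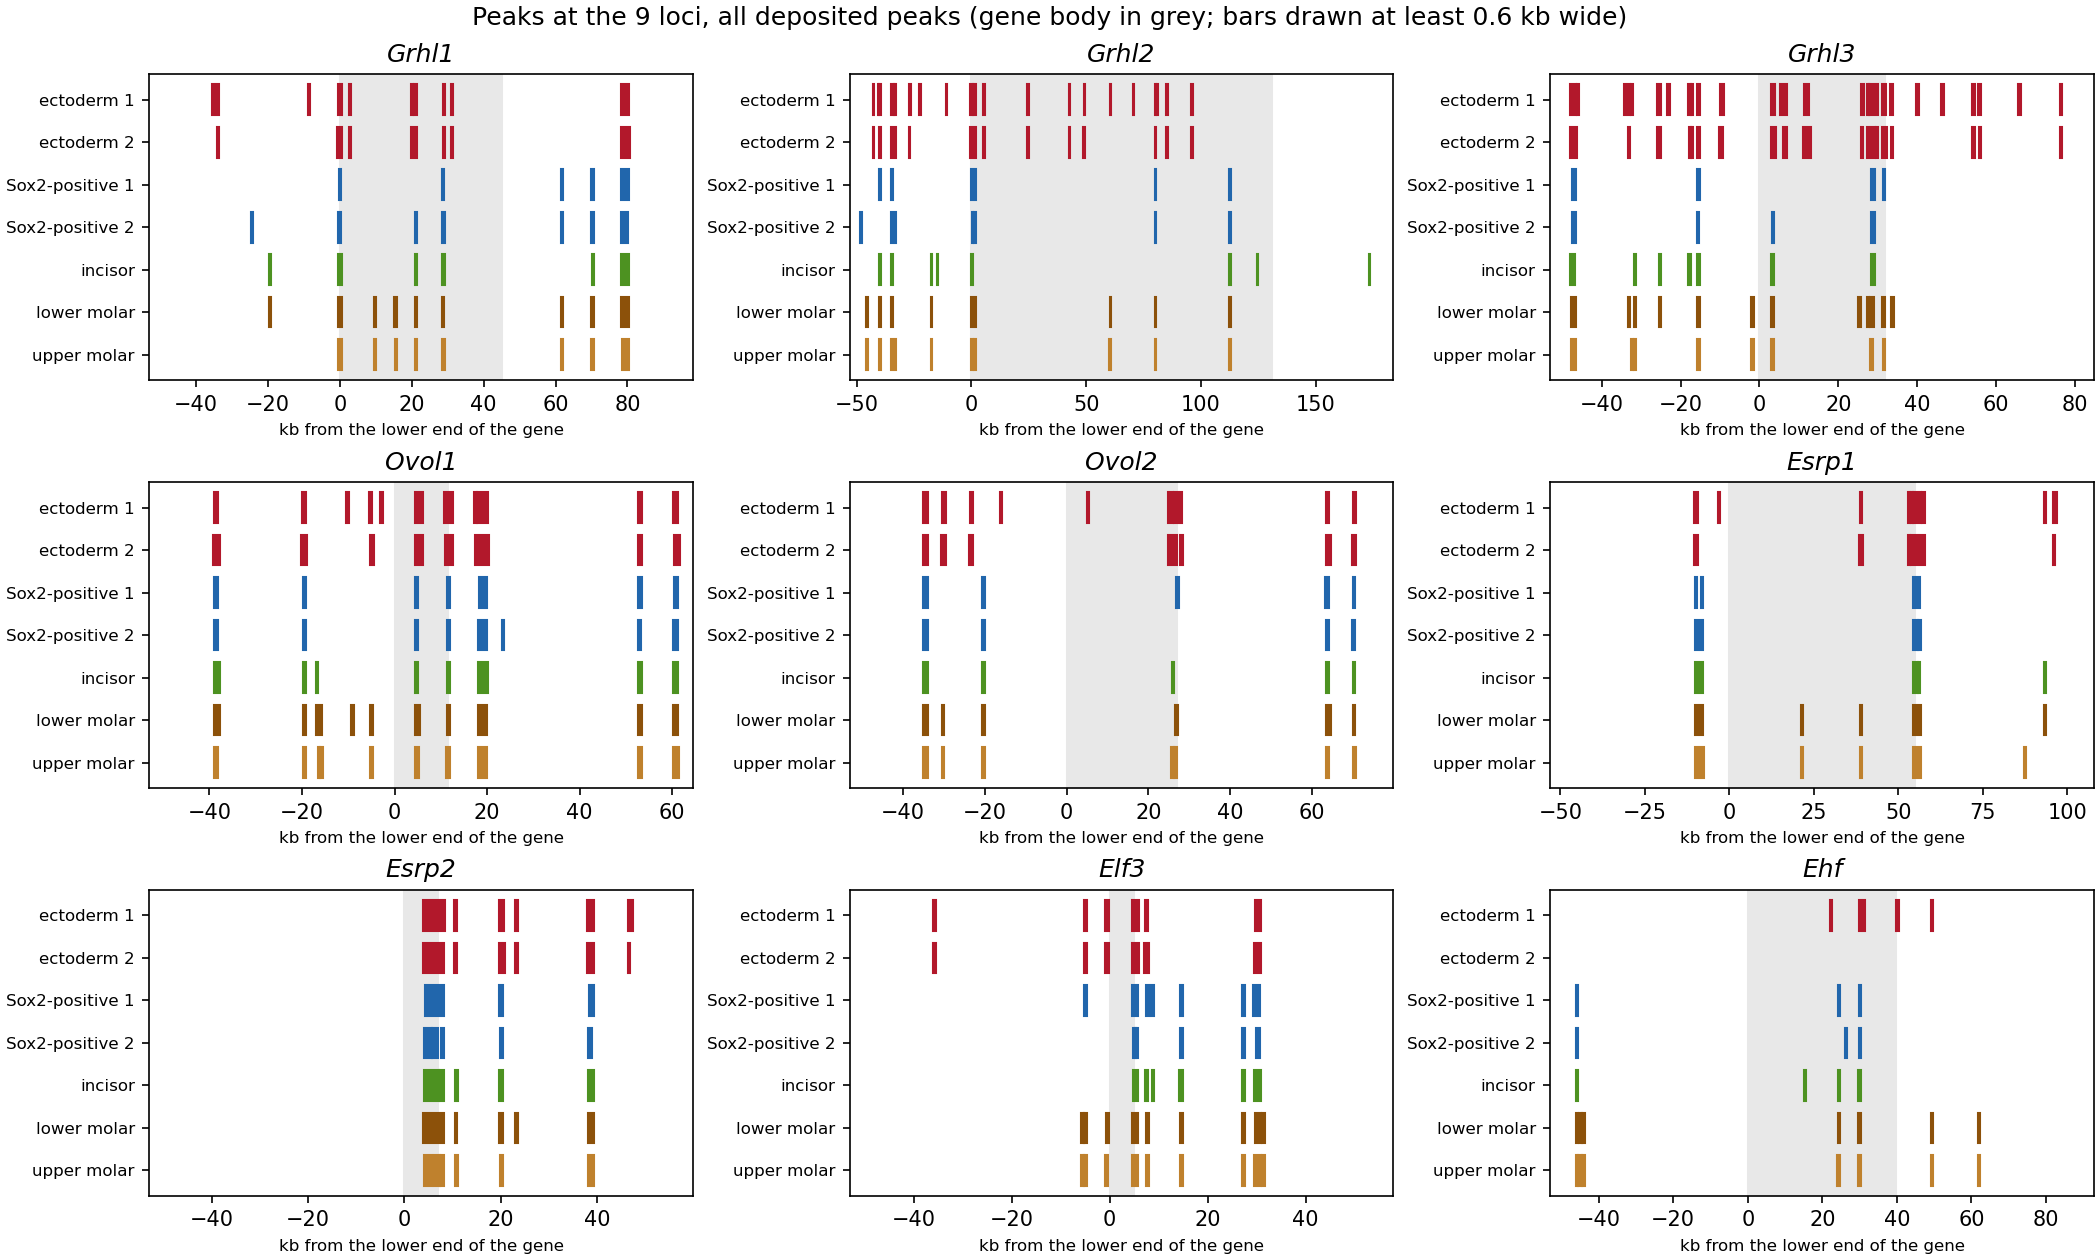
Position of every peak of the full lists (coloured bars, 1 row per library, drawn at least 0.6 kb wide) at the 9 loci, as distance in kb from the end of the gene with the lower coordinate, with the gene body in grey. The ectoderm rows carry bars within and around Grhl2 and Grhl3 that no other row has, and the Ehf row of ectoderm replicate 2 is empty.

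Merged over the 7 lists, the 130 regions at the 9 genes fell into classes by the libraries that held them. Regions with a peak in all 7 libraries numbered 25, or 19.2% (16.6% of the 107620 regions within 50 kb of any protein-coding gene). Regions in both ectoderm libraries and no P2 library also numbered 25, or 19.2% beside 11.1%. Regions in all 5 P2 libraries and no ectoderm library numbered 7, or 5.38% beside 4.48%. None was found in both Sox2-positive libraries alone (0.219% of regions near any gene), and none in the ectoderm and Sox2-positive libraries without the teeth (0.065%). With lists of equal length, 20 of 95 regions were ectoderm only (21.1% beside 12%), 20 were in all 7 (21.8% near any gene) and 5 were P2 only (6.16%). No region was in the Sox2-positive libraries alone there (1.43% near any gene), or in the ectoderm and Sox2-positive libraries alone (0.539%). The 9 loci thus held a larger share of ectoderm-only regions than loci in general, and shares of the all-library and P2-only classes near the general level.

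Both molars alone held 10 regions, or 7.69% beside 5.74% near any gene, of which Ehf had 3, Grhl1 and Elf3 had 2 each, and Grhl2, Grhl3 and Esrp1 had 1 each. The ectoderm and both molars shared 4 regions that no other library had, or 3.08% beside 2.4%, at Ovol1, Ovol2, Esrp1 and Elf3. At Esrp1 this was chr4:11370342-11371478 in the gene body, covered over 692 and 1137 bases in the ectoderm and 276 and 258 in the molars. In equal-length lists that region had no molar peak and was ectoderm only, and 0 of the 4 regions kept their class. A peak in 1 library only made 32 of the 130 regions (24.6% beside 29.9%). Equal-length lists gave 4 molar-only regions (4.21% beside 4.45%) and 24 in 1 library (25.3% beside 24%). The ectoderm and molars alone shared 2 regions there (2.11% beside 1.18%), at Esrp2 and Elf3, which were not among the 4 of the full lists. These classes at the 9 loci were thus close to the general level once lists had equal length.

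Grhl2 and Grhl3 made up much of this in full lists, with 8 ectoderm-only regions each. Grhl1 had 3, Ovol2 and Esrp1 had 2 each, Esrp2 and Elf3 had 1 each, and Ovol1 and Ehf had 0. Without Grhl2 and Grhl3 the share was 9 of 77 regions, or 11.7%, close to the 11.1% near any gene. In equal-length lists it was 10 of 60, or 16.7%, still above the 12% near any gene. Grhl3 held 8 of the 20 ectoderm-only regions of the equal-length lists and Grhl2 only 2, fewer than the 3 of Esrp1. Without Grhl3 alone the equal-length share was 15.6%, and without Grhl2 alone it was 23.1%, both above that 12%. Grhl3 thus carried part of the excess there and Grhl2 did not. Of the 25 ectoderm-only regions 23 (92%) lay more than 1 kb from any gene end, beside 10788 of 11993 ectoderm-only regions near any gene, and 12 lay in the body of one of the 9 genes. Of the 25 regions in all 7 libraries 8 (32%) lay away from gene ends, beside 40.3% near any gene, while 6 were at start sites of the 9 genes and 11 lay only at ends of other genes. The placement of both classes was thus close to that at genes in general.

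**Figure D4:**
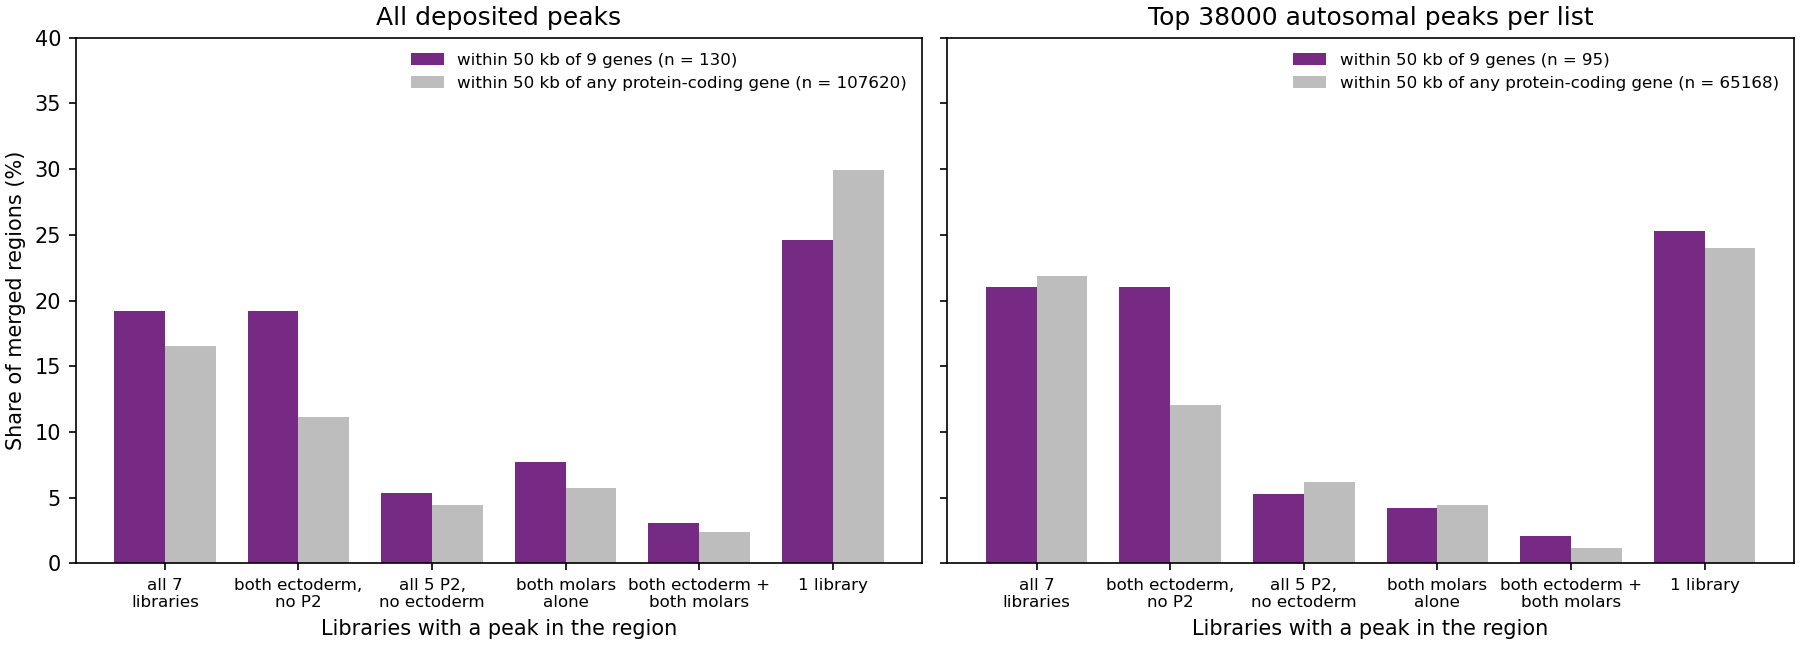
Share of merged regions (y axis, %) by the libraries that hold a peak in them (x axis), at the 9 genes (purple) and within 50 kb of any protein-coding gene (grey), for full lists at left and equal-length lists at right. The class with both ectoderm libraries and no P2 library is taller in purple than in grey in both panels, 19.2% beside 11.1% at left and 21.1% beside 12% at right.

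The widest ectoderm-only regions were in the body of Grhl3. The region chr4:135553005-135554926, 1922 bases wide and 19.7 kb from the start site, was covered over 1245 and 1922 bases in the ectoderm replicates. The region chr4:135547213-135548962, 25.5 kb from the start site, was covered over 1750 and 1025 bases and ranked above 93.2% and 78.3% of those libraries' peaks. The gene table gives gene ends only, so exons and introns were not told apart. The best-ranked ectoderm-only region at Esrp1, chr4:11427691-11428983, lay 40.9 kb from the gene and ranked above 86.4% and 69.9% of peaks. At Grhl2 it was chr15:37205661-37206241, 26.6 kb from the gene and in no annotated gene, above 78.5% and 57.5%. These were picked as the best-ranked or widest of their class, so their ranks describe them and no more. The others named by the same rule were chr12:24537760-24538553 in Taf1b for Grhl1, chr8:106176702-106177712 in Slc7a6 for Esrp2, chr2:144281439-144282289 at an end of Mgme1 for Ovol2 and chr1:135217541-135218229 for Elf3. The Elf3 region was the lowest of them, above 64.4% and 24.0% of peaks. Of the 25 ectoderm-only regions, 13 kept that class in equal-length lists and 4 had no peak there. A region inside a neighbouring gene was counted at the member by distance alone.

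The P2-only regions were fewer. At Esrp1, chr4:11323333-11324294, 7.64 kb from the gene, ranked above 53.7% and 37.6% of peaks in the Sox2-positive replicates and 46.7%, 68.6% and 70.6% in the incisor, lower molar and upper molar. Inside Grhl2, chr15:37344889-37345731 ranked above 21.9% and 48.0% in the Sox2-positive replicates and 72.7%, 69.2% and 63.8% in the teeth. Near Grhl1, chr12:24642112-24643004 ranked above 70.7% and 39.2%, then 82.3%, 88.4% and 84.5%. These ranks refer to each library's own list, and lists of unequal length do not allow an order between libraries to be read from them. Elf3 had 2 such regions, chr1:135267812-135268618 and chr1:135280729-135281023, both inside Rnpep, and Ovol2 (chr2:144284548-144285167) and Ehf (chr2:103217321-103217806) had 1 each. The Ehf region ranked above only 1.88% and 3.24% of peaks in the Sox2-positive replicates, and the Ovol2 region above 6.62% in replicate 2. Of the 7 P2-only regions 5 kept that class in equal-length lists, and the Ehf region did not.

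Among the 8 regions present in all 7 libraries and away from gene ends, chr15:37197669-37199891, 34.0 kb from the lower end of Grhl2, ranked above 97.7% and 96.2% of peaks in the ectoderm, 77.3% and 69.9% in the Sox2-positive cells, and 68.1%, 90.1% and 85.6% in the teeth. It was covered over 1893 and 2221 bases in the ectoderm and over 592 to 968 elsewhere. In the body of Grhl3, chr4:135569789-135571914, 2.78 kb from the start site, was covered over 2103 and 1636 bases in the ectoderm, 1008 and 948 in the Sox2-positive cells and 953, 1057 and 652 in the teeth. In full lists both regions were open in all samples and widest in the ectoderm. These 2 were picked from the 8, and that width order did not hold for all of the 8. In the body of Grhl1, chr12:24600809-24601340 was covered over 463 and 499 bases in the ectoderm and 368 and 461 in the Sox2-positive cells. In the incisor, lower molar and upper molar it was covered over 433, 404 and 466. Equal-length lists left the Grhl2 region as it was, but the Grhl3 region lost its incisor peak. The cover of the Grhl3 region in those lists was 2103 and 1099 bases in the ectoderm. It was 1008 and 948 in the Sox2-positive cells, and 1057 and 652 in the lower and upper molar. Ovol1 had 3 of the 8, and Grhl3 a second one.

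Of the regions shared by the 2 Sox2-positive libraries, 33 of 35 (94.3%) were also open in the whole incisor, beside 96.1% near any gene, and 27 of 34 (79.4%) beside 87.8% in equal-length lists. The reverse share was 33 of 52 incisor regions, or 63.5%, beside 47.4% near any gene, and 27 of 36 (75%) beside 65.4% in equal-length lists. Of the 69 regions shared by the ectoderm replicates, 36 (52.2%) were in neither Sox2-positive library, beside 44.8% near any gene, and 23 of 52 (44.2%) beside 33.7% in equal-length lists. The ectoderm replicates shared 69 regions at these loci, every one of the 69 of replicate 2 and 72.6% of the 95 of replicate 1.

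Targets and partners of these factors in epithelia, a list of 26 genes (cadherin, claudins, tight-junction and protease genes), were read at their start sites. Of the 26, 23 and 22 had a start-site peak in the ectoderm, 18 and 17 in the Sox2-positive cells, and 13, 19 and 18 in the incisor, lower molar and upper molar. Equal-length lists gave 22 and 22, 16 and 17, then 8, 14 and 13. A peak was present in all 7 libraries for 11. Cldn3, Cldn6 and Cldn7 (claudins of the tight junction), Marveld2 (tricellulin), Tgm1 (the transglutaminase of the skin barrier) and Zfp750 (a factor of epidermal differentiation) had one in both ectoderm libraries and in neither Sox2-positive library. That is 6 of 26 genes beside 6.02% of all genes, and in equal-length lists the same 6 beside 3.61%. The 3 claudins lacked a start-site peak in the teeth as well, while Marveld2 had one in both molars, Tgm1 in the incisor and Zfp750 in the lower molar.

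The 3 claudin loci, picked here for that start-site pattern, had these peak numbers. Cldn3 had 16 and 16 peaks in the ectoderm, 7 and 7 in the Sox2-positive cells and 7, 13 and 11 in the teeth, or 9 and 11, 7 and 7, then 4, 7 and 3 in equal-length lists. Cldn6 had 18 and 14, 11 and 8, then 9, 14 and 10, or 12 and 13, 11 and 8, then 7, 7 and 6 in equal-length lists. Cldn7 had 16 and 14, 9 and 11, then 12, 10 and 12, or 14 and 14, 9 and 11, then 9, 10 and 10. All 3 had more peaks in both ectoderm than in both Sox2-positive libraries in either reading. The start-site peaks for which they were picked are among the peaks counted, so this order cannot be set beside the share of all genes. At Cldn6 the lower molar equalled ectoderm replicate 2 in full lists. The opposite start-site pattern (present in the Sox2-positive pair, absent from the ectoderm pair) was met at 0 of the 26 in full lists (0.375% of all genes) and in equal-length lists at Arhgef19 alone (0.992%). Dsg1a and Dsg1b (desmogleins) had a start-site peak in Sox2-positive replicate 1 alone, and Dsg1c had none. Of the 6 repressors of the epithelial state (Zeb, Snai and Twist genes), 6 and 5 had a start-site peak in the ectoderm, 6 and 5 in the Sox2-positive cells and 6, 6 and 6 in the teeth, and 4 had it in all 7 libraries. In equal-length lists 2 and 4 of the repressors had it in the ectoderm and 6 and 5 in the Sox2-positive cells. Zeb2 and Twist2 had it there in both Sox2-positive and neither ectoderm library, beside 0.992% of autosomal genes. In full lists 0 of the 6 had that pattern, beside 0.375% of all genes. Twist2 then had a peak in both ectoderm libraries and Zeb2 in ectoderm replicate 1. Of 11 relatives of the 9 genes, 9 and 8 had a start-site peak in the ectoderm, 8 and 6 in the Sox2-positive cells and 9, 9 and 9 in the teeth, or 8 and 7, 7 and 5, then 7, 6 and 7 in equal-length lists. Tfcp2l1, a grainyhead relative, was the only one present in both ectoderm and neither Sox2-positive library.

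**Figure D5:**
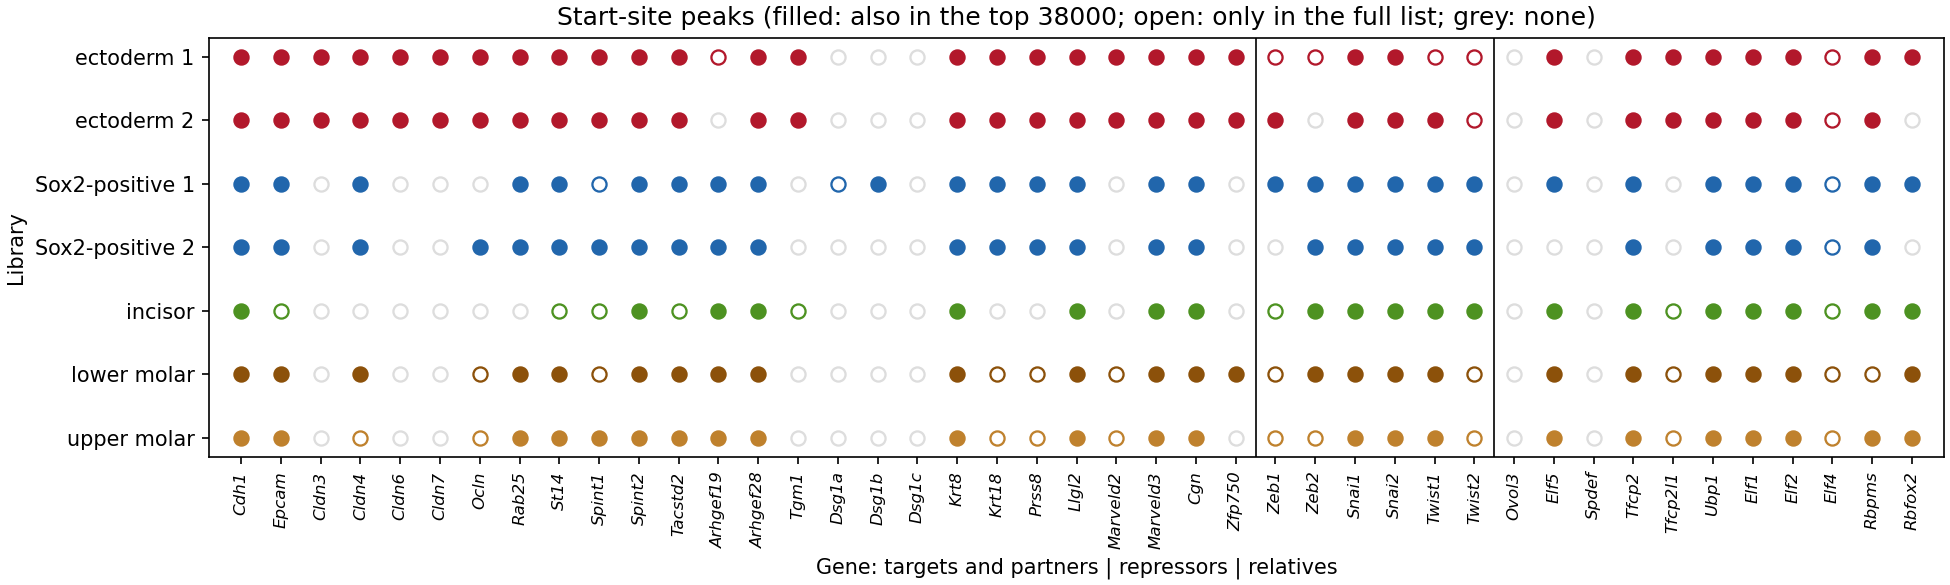
Start-site peaks of the 43 genes of the target, repressor and relative lists (x axis, lists divided by lines) in each library (rows), filled where the peak is also among the 38000 strongest, open where it is only in the full list and grey where there is none. Cldn3, Cldn6 and Cldn7 are filled in the 2 ectoderm rows and grey in the other 5, and Twist2 is filled in the 2 Sox2-positive rows and the incisor.

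Markers of cell types were read in the same way, because the dissected and sorted samples could hold more than epithelium. Of 9 epithelial markers, 8 and 8 had a start-site peak in the ectoderm, 7 and 8 in the Sox2-positive cells and 6, 8 and 8 in the teeth, Trp63 having none in any library. Only starts in the promoter table, or gene ends, were read, so a peak at another start would be missed. The Trp63 locus itself held 23 and 13 peaks in the ectoderm, 7 and 2 in the Sox2-positive cells and 10, 23 and 23 in the teeth. Their loci summed to 135 and 94 peaks in the ectoderm, 61 and 54 in the Sox2-positive cells and 70, 120 and 116 in the teeth, and in equal-length lists to 84 and 77, 54 and 54, then 55, 72 and 68. A peak in the windows of 2 markers counts for each in these sums. More peaks in both ectoderm than in both Sox2-positive libraries were counted at 8 of the 9 markers (40.4% of all genes). In equal-length lists it was 6 (20.1%). Epcam was an exception in either reading, with 4 and 4 against 6 and 4. The peak numbers of most epithelial markers thus moved with the 9 genes, while their start-site counts hardly differed. The part of a different share of epithelial cells was not tested.

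As a set, mesenchymal markers moved the other way in start-site counts and summed peaks. Of 8, 5 and 5 had a start-site peak in the ectoderm, 6 and 7 in the Sox2-positive cells and 7, 7 and 8 in the teeth, and in equal-length lists 2 and 4, 6 and 7, then 6, 4 and 4. Their loci summed to 53 and 34 peaks in the ectoderm, 56 and 62 in the Sox2-positive cells and 91, 80 and 75 in the teeth, or 23 and 21, 48 and 62, then 60, 38 and 36 in equal-length lists. Singly, 2 of the 8 had more peaks in both Sox2-positive than in both ectoderm libraries, beside 2.93% of all genes. In equal-length lists it was 4, beside 17.6%. The reverse was met at 0 of the 8 in either reading, so at the rest the groups overlapped. Pdgfra had a start-site peak in all 5 P2 libraries and in neither ectoderm library, and Col3a1 had one in the upper molar alone. The part of mesenchymal cells in the differences at the 9 genes was not tested.

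Markers of 4 other cell types were read as well. Of 6 endothelial markers 1 and 1 had a start-site peak in the ectoderm, 1 and 2 in the Sox2-positive cells and 3, 3 and 1 in the teeth, with Pecam1, Tek and Emcn at none. Of 6 blood markers it was 2 and 2, 3 and 3, then 2, 2 and 2 (in equal-length lists 1 and 2, 3 and 3, then 2, 2 and 2), so the Sox2-positive cells were highest, with Ptprc, Csf1r and Itgam at none and Tyrobp in the Sox2-positive libraries alone. Of 6 neural and Schwann markers it was 5 and 3, 4 and 3, then 3, 4 and 4, with Sox10 at none, and of 4 muscle markers 3 and 1, 2 and 1, then 2, 3 and 3. In equal-length lists their loci summed, in the ectoderm and then in the Sox2-positive cells, to 19 and 21 against 16 and 19 (endothelium), 21 and 22 against 27 and 31 (blood), 33 and 35 against 37 and 35 (neural) and 13 and 14 against 12 and 11 (muscle). Their part in the results was not tested either.

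The peak counts of the 9 genes had matches of unequal closeness elsewhere. By the sum of absolute differences over the 7 full lists, Dennd4b had the same 7 counts as Ovol1 (sum 0), Kif14 and Rbm25 differed from Esrp1 by 1 and Ddx21 from Esrp2 by 1, while the nearest genes to Grhl3, Lrrc20 and Gnaq, differed by 12. In lists of equal length these sums were larger, at 5 for Dennd4b, 5 and 6 for Kif14 and Rbm25, and 8 for Ddx21. For Lrrc20 and Gnaq they were 15 and 17.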

How the data were processed

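ATAC-seq peak lists of 7 mouse libraries were used as deposited by the authors, 1 list per library. Per the submitters' processing notes, reads were handled with FastQC, Trimmomatic, Bowtie2, deepTools and Genrich on the build mm10. Versions, options, read filters, the transposase shift and any pooled call are not given in the sources used here. The lists hold, per the deposited columns, a peak signal (at least 200.001 in every list), a −log10 p (2.56 to 17.8), a score and the summit's offset, an other unit in bases. The authors' values show no scaling between libraries, so −log10 p and signal served only to rank peaks within a list, and the score was not used.

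Gene bodies came from a RefSeq table of GRCm38.p6 with 21887 protein-coding genes, and start sites from a promoter table that covers 79.9% of them. Peaks were assigned with a 50 kb window, start-site peaks with 1 kb, and regions were merged over the 7 lists by a 1 bp overlap. Scripts ran in Python 3.11.15 with pandas 2.3.3, NumPy 2.4.6 and Matplotlib 3.10.9, and were tested on simulated data. No count model fits such lists, and no test was run. Groups came from the sample titles.

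The 9 genes, the gene lists and the markers were chosen with earlier results of these data known. Named regions were each gene's start-site region and regions picked from the ectoderm-only and P2-only classes. The picks were, per class, the 2 with the largest summed width and each gene's region with the best worst rank. Regions with a peak in all 7 libraries could also be named. Genes of the target, repressor and relative lists could be named where their start-site pattern was not the same in all 7 libraries. The genes most alike each member were the 3 with the smallest sum of absolute differences of counts, over 1 Mb away, for members with 10 or more peaks. Alternatives tried were other lists, windows, overlaps and each replicate left out.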

Additional observations from a re-analysis of the deposited data

How the results depend on the processing

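No paired analysis was possible because the results come from peak lists with no test, so no replicate block could enter a fit. The mean ectoderm minus Sox2-positive difference over the 9 genes (41 peaks) was 15.5 with the 38000 strongest peaks by −log10 p, 15 by signal, 17.5 in gene bodies only, 60.5 with a 100 kb window and 25 to 57 with a replicate left out. Single differences changed sign at Ehf (−0.5 to 0.5 with 25 kb, and −3 to 2 with a replicate left out, 2 being without ectoderm replicate 2), at Esrp2 (2 to −0.5 in the gene body) and at Grhl1 (2.5 to −0.5 by −log10 p and −0.5 by signal). Genes with more peaks in the ectoderm (5) were 3 with 25 kb and 5 to 8 with a replicate left out, 8 being without ectoderm replicate 2. Genes with more in the Sox2-positive cells (0) were 1 in equal-length lists by either rank and 0 to 1 with a replicate left out.

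Ectoderm-only regions (25) were 13 with the stronger 50% of each list, 12 in gene bodies and 25 to 50 with a replicate left out, 50 being without ectoderm replicate 2. Regions in every library (25) were 15 with 25 kb, 9 in gene bodies, 44 with 100 kb and 25 to 28 with a replicate left out. P2-only regions (7) were 0 with the stronger 50%, 1 in gene bodies and 7 to 8 with a replicate left out. Sox2-positive-only regions (0) were 0 to 4, 4 being without Sox2-positive replicate 1. With a replicate left out, start-site peaks were found in every library for 6 to 7 genes, in the ectoderm for 8 to 9 and in the Sox2-positive cells for 6 to 8. Genes with a higher start-site percentile in the ectoderm (7) stayed at 7 or 8 under the 10 alternatives tried, all chosen after the data were seen. Gene-body and 25 kb windows hold fewer regions by construction. For the other changes the cause was not tested. Of 125 alternative values of these group results 106 were counted as keeping their reading. That count allows shifts: a fall from 6 to 4 genes with a start-site peak in every library was counted as kept. It also includes the 10 alternatives of the start-site percentile. Motifs in whole peaks were not run because no genome was used. Unknown read depth limits every peak count.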
